A study of Caenorhabditis elegans with 12 samples.

Results

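Infected animals that had been fed bacteria labelled stt-3 RNAi were compared with infected animals that had been fed control RNAi bacteria, by RNA-seq of whole worms. These were all 6 libraries of the series' 12 that came from animals on PA14, a strain of Pseudomonas aeruginosa that is pathogenic to C. elegans, with 3 replicates in each RNAi group. The animals of every group were wild-type N2 worms, labelled as adults. They reached the L4 larval stage on RNAi bacteria, were washed, and spent 12 h on a PA14 lawn, or on their own RNAi E. coli in the uninfected groups, before harvest. Feeding RNAi was not limited to a tissue and began before infection, so that the RNAi groups also differ in everything before infection. The 6 uninfected libraries, 3 per RNAi group, are used here only to show where the difference on PA14 departs from the one on E. coli. The labels do not say whether replicates came from separate cultures, so that p values measure the spread between these libraries as deposited. Per the paper, batch effects had been removed from the values, and the fit here does not account for that step. The spread may therefore be too narrow and the p values too small, which was not tested.

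Oligosaccharyl transferase (OST) is a complex of the endoplasmic reticulum (ER) membrane that attaches a preassembled sugar chain to asparagine residues of proteins as they enter the ER, and STT-3 is its catalytic subunit. Many secreted and membrane proteins fold only with these N-linked glycans, and misfolded proteins in the ER activate the unfolded protein response (UPR ER), in which the sensor IRE-1 and the transcription factor XBP-1 raise the mRNAs of chaperones. Defence of C. elegans against PA14 takes place largely in the intestine, where the p38 kinase cascade of TIR-1, NSY-1, SEK-1 and PMK-1 acts through the factor ATF-7 on secreted effectors such as C-type lectins, lysozymes and CUB-like proteins. A separate branch runs through the factor ZIP-2 to irg-1 and irg-2.

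The deposited values are normalized by the authors and rounded, and they are not read counts, so that the depth behind a value is unknown. Of 17430 genes, 11638 reached 10 in 3 or more of the 6 PA14 libraries and were tested with limma on log2(value + 1). Fold changes are on that scale, which understates the change of low genes. A gene was called when it differed by more than 2-fold and its p value, adjusted after Benjamini and Hochberg (BH), was under 0.05. The sums of all values were 6345059 to 7134619 in the control libraries and 5530614 to 5962950 in the labelled libraries on PA14, and these ranges do not overlap. The 75th percentile of the values was 161 to 164 in all 12 libraries.

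On PA14, 247 genes (2.12% of those tested) were called higher and 425 (3.65%) were called lower in the labelled libraries, so that 36.76% of the calls were higher. When all libraries were rescaled to the same total, which raised the median log2 fold change of all genes from 0.04 to 0.24, 426 genes were called higher and 345 lower, and 55.25% of the calls were higher. The balance of higher and lower genes therefore depends on the scale. Of the genes first called, all 247 higher and 342 of the lower genes were still called. Without a threshold on the fold change, 637 genes (5.47%) were higher and 773 (6.64%) lower at an adjusted p under 0.05. In 2042 genes (17.5%) all labelled libraries lay above all control libraries, and in 1770 genes (15.2%) all lay below. The first principal component of the 6 libraries held 59.0% of the variance and separated control RNAi (-38.1 to -26.4) from the labelled libraries (29.5 to 36.9).

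**Figure D1:**
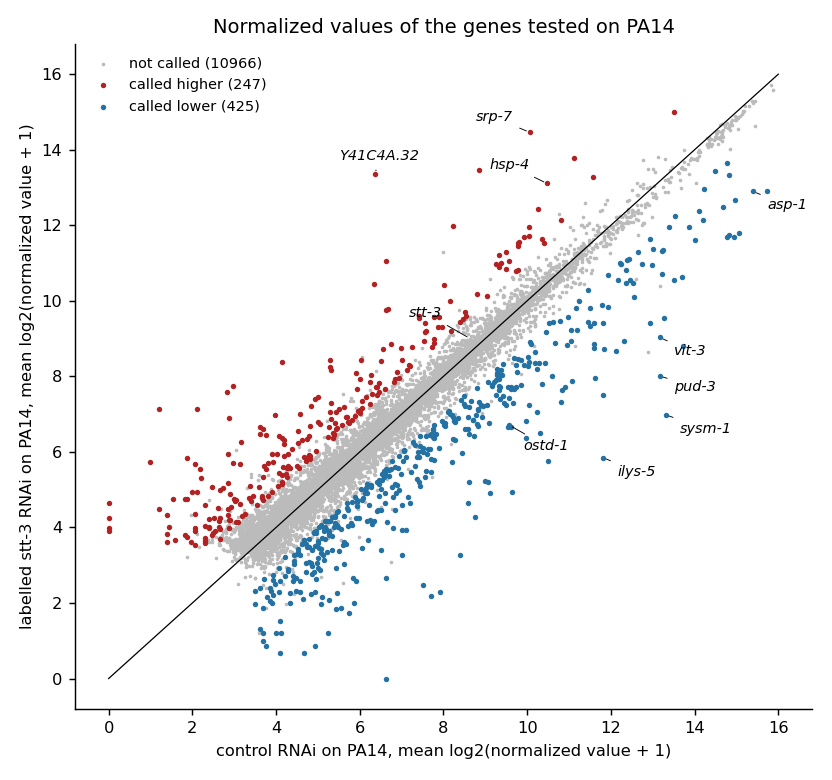
Mean log2(normalized value + 1) of the 11638 genes tested, in the 3 control RNAi libraries (horizontal) and the 3 labelled stt-3 RNAi libraries (vertical) on PA14, with the line of equal values. The 247 genes called higher are red and the 425 called lower are blue, and stt-3 lies close to the line while ostd-1 lies well below it.

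The targeted gene was examined first. The normalized values of stt-3 (WBGene00020437, chromosome III from 6248637 to 6251607 of WBcel235) on PA14 were 367, 398 and 434 with control RNAi and 469, 513 and 551 in those libraries labelled stt-3 RNAi. Every labelled library was thus above every control library, by 0.35 on the log2 scale (SE 0.08, limma, BH-adjusted p = 0.0172), which is 1.28-fold and not past the call. Because stt-3 was not lower in these values, the groups are called by their label throughout. In a separate qRT-PCR assay the study reported reduced stt-3 mRNA in worms fed its stt-3 RNAi bacteria. The values of that assay were not analysed here. The subunit that was lower was ostd-1 (ribophorin II, WBGene00019693, at 5549149 to 5550295 of chromosome I), with 823, 656 and 810 with control RNAi and 114, 100 and 98 with the labelled RNAi. This is a 7.25-fold difference (log2 fold change -2.86, standard error 0.11, limma, BH-adjusted p = 1.47e-07), and without infection the log2 fold change was -2.35 (difference -0.51, limma, BH-adjusted p = 0.123). The gene tom-1 spans this place on the other strand, but none of its annotated exons overlaps an exon of ostd-1. Where exons of genes do overlap, their reads cannot be told apart here because the library kit does not mark strand. The remaining subunits tested, ribo-1, ostb-1, dad-1 and ZK686.3, had log2 fold changes of 0.21, 0.33, 0.34 and 0.31, none of them called (dad-1 was chosen after its values were seen). The comparison, which addresses what loss of OST does to infected animals, thus rests on libraries in which the mRNA of the ostd-1 subunit was low and that of stt-3 was not.

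Genes for protein folding in the ER were higher in the labelled libraries. Of 12 ER chaperone genes tested, 6 were called higher and 0 lower, with a median log2 fold change of 1.16 against 0.04 for all genes, and of 7 protein disulfide isomerase and oxidase genes 5 were called higher and 0 lower, with a median of 1.71. The normalized values of hsp-4, which encodes the ER chaperone BiP, were 1362, 1216 and 1743 with control RNAi and 8158, 8413 and 9999 with the labelled RNAi. No labelled library came near the control range, and the rise was 6.19-fold (log2 fold change 2.63, standard error 0.24, limma, BH-adjusted p = 4.95e-05). Its paralog hsp-3 had 561, 556 and 943 with control RNAi and 1824, 2047 and 2329 with the labelled RNAi. That rise was 3.09-fold (limma, BH-adjusted p = 0.000918), and control replicate 3, the highest of its group, was still less than each labelled library. The GRP94 chaperone gene enpl-1 had 1030, 896 and 1251 with control RNAi and 3729, 3793 and 4312 with the labelled RNAi, a 3.75-fold rise (limma, BH-adjusted p = 4.48e-06), with spo-11 overlapping on the other strand. T14G8.3, the worm HYOU1 gene, and dnj-7, a J-domain co-chaperone gene, rose 4.5-fold and 3.38-fold (limma, BH-adjusted p = 0.000120 and 0.000543), although T14G8.3 also overlaps a gene on the other strand. Of the list, the glycoprotein folding sensor uggt-1 had a log2 fold change of 0.84, and the calnexin gene cnx-1 had 0.11, both chosen here after their values were seen. The study had named hsp-3, hsp-4 and enpl-1 from this series, and the chaperone and isomerase lists were chosen with earlier results known. These lists are therefore not independent evidence of their direction.

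Among the enzymes that form disulfide bonds, pdi-6 had normalized values of 1134, 1002 and 1613 with control RNAi and 5328, 5087 and 6144 with the labelled RNAi. The groups were far apart, and the rise was 4.49-fold (log2 fold change 2.17, limma, BH-adjusted p = 0.000183). C14B9.2, another member of the family, had 174, 146 and 196 against 767, 638 and 865, a 4.38-fold rise (limma, BH-adjusted p = 0.000102), with a gene on the other strand overlapping it. The rises of pdi-2 and pdi-3 were 3.42-fold and 3.27-fold (limma, BH-adjusted p = 0.000241 and 2.02e-05). With a test against 2-fold itself (limma treat) the calls were fewer, 3 of the 12 chaperones and 3 of the 7 isomerases and oxidases.

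The rise did not extend to every part of ER quality control at the size of a call. Of 17 genes of ER-associated degradation, which returns misfolded proteins to the cytosol for destruction, 0 were called, with a median log2 fold change of 0.12, while 4 passed an adjusted p under 0.05 at a smaller fold. No gene was called among 11 genes of translocation into the ER, 13 algn genes that build the sugar donor of OST, or 14 genes of the COPI and COPII vesicle coats. In the last group 5 passed the adjusted p at less than 2-fold. Of the 5 genes of the UPR ER sensors and their factors 0 were called. The mRNA of xbp-1 on PA14 was 906, 734 and 971 with control RNAi and 944, 917 and 1102 with the labelled RNAi. These ranges overlap, with a log2 fold change at 0.19 (limma, BH-adjusted p = 0.399). Without infection xbp-1 had 423, 464 and 506 with control RNAi and 889, 801 and 750 with the labelled RNAi, or 0.81 as a log2 fold change. The difference between both comparisons, -0.62, did not pass the test (limma, BH-adjusted p = 0.103). For ire-1, which unc-105 overlaps on the other strand, the log2 fold change stood at 0.25 on PA14 (limma, BH-adjusted p = 0.138).

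**Figure D2:**
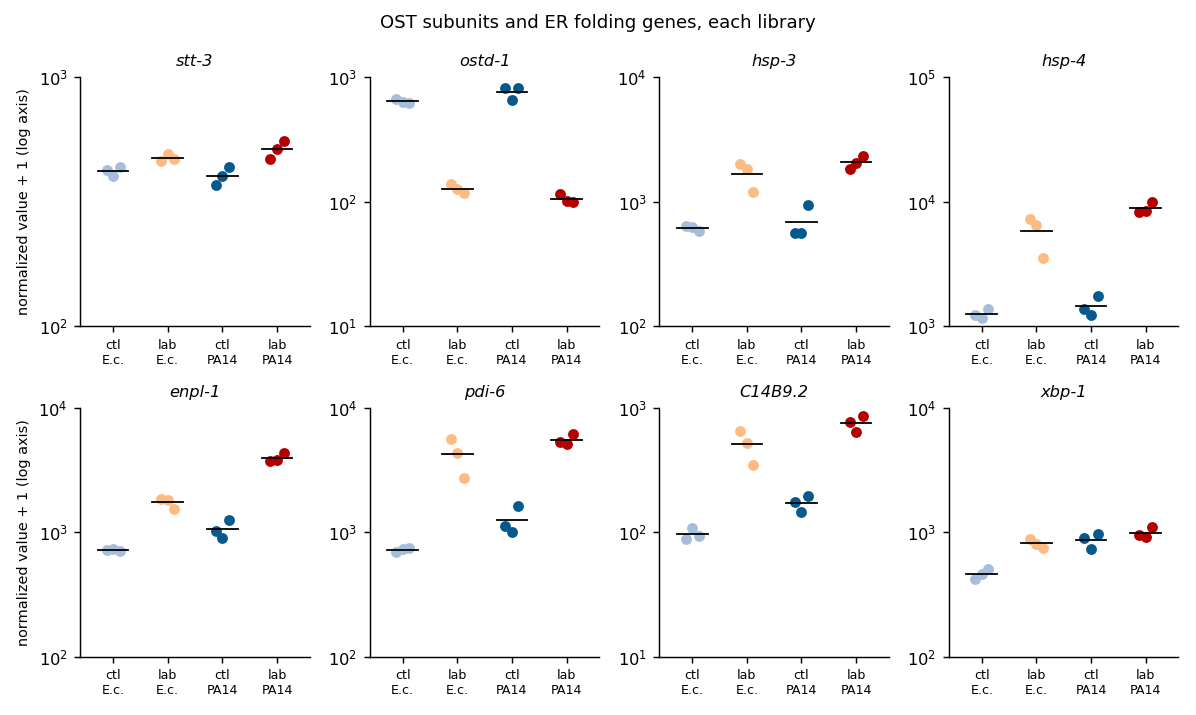
Normalized value + 1 (log axis) of OST subunit and ER genes in each of the 12 libraries, with the mean of each group as a bar (ctl, control RNAi; lab, labelled stt-3 RNAi; E.c., E. coli). The 3 labelled PA14 libraries of hsp-4 lie between 8158 and 9999 and those of control RNAi between 1216 and 1743, ostd-1 is low in both labelled groups, and stt-3 is not.

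The ER folding genes were also higher without infection. In the same 12 chaperone genes 7 were called higher on E. coli, with a median log2 fold change of 1.34, and in the 7 isomerase and oxidase genes 4 were, with a median of 1.33. In both lists 0 genes had a difference between the PA14 and the E. coli comparison that passed the test (adjusted p under 0.05 and a log2 difference beyond 1, 32 genes or 0.275% of those tested in the larger direction and 169 or 1.45% in the smaller). Over the whole table limma gave 1608 genes with an unadjusted p under 0.05 for this difference. For hsp-4 this difference came to 0.49 (SE 0.34, limma, BH-adjusted p = 0.624), for enpl-1 0.64 (limma, BH-adjusted p = 0.0954) and for pdi-6 -0.32 (limma, BH-adjusted p = 0.800).

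The mRNAs of the p38 cascade itself were mostly within 2-fold of control RNAi, while most of its known effectors fell. Of 13 pathway genes tested 1 was called higher and 0 lower. The log2 fold changes of the kinase genes sek-1 and pmk-1, the phosphatase gene vhp-1 and the factor gene atf-7 were 0.45, 0.07, 0.20 and 0.14. Only sek-1 of these passed an adjusted p of 0.05 (limma, BH-adjusted p = 0.0200), at 1.36-fold and with R03G5.6 overlapping it on the other strand. The called gene was nipi-3, a Tribbles-like gene, with 62, 58 and 71 with control RNAi and 127, 124 and 137 with the labelled RNAi, a 2.02-fold rise (limma, BH-adjusted p = 0.000267). Its call lies at the threshold and was lost without control replicate 1, without control replicate 2 and without labelled replicate 3 (limma, log2 fold change over the settings 0.95 to 1.22).

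Of 10 genes taken as effectors downstream of PMK-1, 6 were called lower and 1 higher, with a median log2 fold change of -1.89. T24B8.5 (sysm-1, WBGene00011979, chromosome II from 9082626 to 9083193), an ShK-like peptide gene widely used as a readout of PMK-1, had normalized values of 14377, 7078 and 10247 with control RNAi on PA14 and 153, 74 and 174 with the labelled RNAi. The control and labelled ranges are separated by more than an order of magnitude, and the difference was 80.2-fold (log2 fold change -6.33, standard error 0.49, limma, BH-adjusted p = 2.02e-05). On E. coli sysm-1 had 144, 139 and 200 with control RNAi and 177, 40 and 93 with the labelled RNAi, so that the labelled PA14 libraries lay within the range of the uninfected ones.

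The CUB-like genes of the same list followed. K08D8.5 had 1509, 784 and 1712 with control RNAi and 79, 67 and 135 with the labelled RNAi, a 14-fold fall (limma, BH-adjusted p = 7.71e-05). C17H12.8 had 4550, 2314 and 4709 against 324, 299 and 778, an 8.68-fold fall (limma, BH-adjusted p = 0.00160). In each of these genes control replicate 2 was the lowest of its group, and all labelled libraries were lower still. On E. coli their log2 fold changes were -0.28 and 0.29, neither of them called, and the difference between the comparisons was -3.53 for K08D8.5 and -3.41 for C17H12.8 (limma, BH-adjusted p = 0.00734 and 0.0302). A further CUB-like gene, irg-5, fell 9.04-fold (limma, BH-adjusted p = 0.00970). The member that rose was catp-3, a P-type ATPase gene (log2 fold change 1.98, limma, BH-adjusted p = 0.00330), chosen after its values were seen. The study had singled out sysm-1, C17H12.8 and K08D8.5 alongside these libraries, so that the list is not independent evidence of its direction. A test against 2-fold itself (limma treat) left 3 of the 6 lower calls.

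No gene of the ZIP-2 branch was called, and its difference from the PMK-1 list was not tested. Of 5 genes 0 were called, with a median log2 fold change of 0.17. The values of irg-1 were 1008, 406 and 825 with control RNAi and 909, 526 and 1246 with the labelled RNAi, which overlap (log2 fold change 0.27, SE 0.40, limma, BH-adjusted p = 0.763, and -0.12 to 0.61 over the settings tried). Those of irg-2 were 218, 120 and 145 against 177, 116 and 177 (log2 fold change -0.02, standard error 0.33, limma, BH-adjusted p = 0.984). For zip-2, which dos-3 overlaps on the other strand, a log2 fold change of -0.40 was found (limma, BH-adjusted p = 0.122). These standard errors leave room for changes of about the size of the call in irg-1. The study measured irg-1 and irg-2 as well, so that this list is not independent evidence either. Among all 8 genes named irg, 5 were called lower, where 3.65% of all genes were. They were irg-3, irg-4, irg-5, irg-6 and irg-8 (irg-4 was chosen after its values were seen). Because irg-5 is also counted in the PMK-1 list, the lists overlap. The smallest p of the 5 was that of irg-3, with 4053, 1804 and 4133 with control RNAi and 428, 285 and 660 with the labelled RNAi (7.2-fold, limma, BH-adjusted p = 0.000466).

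Families of secreted antimicrobial proteins were lower as well, and not all alike. Of 71 C-type lectin genes tested out of 143, 33 were called lower and 3 higher, with a median log2 fold change of -1.04. In clec-174 the values were 213, 96 and 433 with control RNAi and 3, 2 and 7 with the labelled RNAi, and in clec-45 they were 442, 204 and 426 against 6, 5 and 21. All labelled libraries were at 21 or below in both (log2 fold changes -5.51 and -5.12, limma, BH-adjusted p = 0.000116 and 0.000186). The control libraries alone carried both genes past the filter, and at such low labelled values the fold depends on the pseudocount. Over the settings tried the log2 fold changes were -6.42 to -4.60 for clec-174 and -5.95 to -4.59 for clec-45. clec-172 and clec-265 fell 8.53-fold and 5.14-fold (limma, BH-adjusted p = 0.000665 and 0.00246), with txt-4 overlapping clec-172 on the other strand. Among lectins with a mean of at least 50 the counts were 21 lower and 0 higher, and against 2-fold itself 8 lower and 1 higher.

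Lysozymes, which cut bacterial cell walls, were called lower in 5 of 9 genes and higher in 0, with a median of -2.32. For ilys-5 (WBGene00017691, chromosome X from 6533490 to 6536840), an invertebrate-type lysozyme gene, control RNAi had 4052, 2881 and 3984 and the labelled libraries had 56, 59 and 55. The labelled libraries differed little among themselves, and the 62.4-fold fall had the smallest adjusted p among the genes described here (log2 fold change -5.96, standard error 0.13, limma, BH-adjusted p = 2.44e-09). Without infection ilys-5 had 5940, 6633 and 6543 with control RNAi and 1875, 2322 and 1823 with the labelled RNAi, and the difference between the comparisons was -4.29 (limma, BH-adjusted p = 2.91e-06). Among the protist-type lysozyme genes, lys-1 had 15610, 10198 and 14898 against 1307, 1429 and 2105 on PA14, an 8.44-fold fall (limma, BH-adjusted p = 2.02e-05). lys-4 fell 18.4-fold and lys-8 5.45-fold (limma, BH-adjusted p = 3.02e-05 and 2.10e-05), with C17G10.13 overlapping lys-8 on the other strand.

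Saposin-like genes, which encode small membrane-active proteins, were called lower in 7 and higher in 2 of 23 (3.65% and 2.12% of all genes), with a median of -0.33. Against 2-fold itself 2 were lower, and 1 of the higher calls was lost without control replicate 1, control replicate 2, labelled replicate 1 or labelled replicate 3. spp-14 had 22397, 15845 and 18639 with control RNAi and 4928, 3933 and 4669 with the labelled RNAi, a 4.18-fold fall (limma, BH-adjusted p = 2.02e-05), and spp-4 fell 4.78-fold (limma, BH-adjusted p = 2.10e-05). In the opposite direction spp-20 had 12, 5 and 4 with control RNAi and 257, 108 and 61 with the labelled RNAi (log2 fold change 4.04, limma, BH-adjusted p = 0.00139). Of 12 galectin genes 3 were called lower, where 3.65% of all genes were, and 0 of the 12 passed the test against 2-fold itself. The called galectin genes lec-9 and lec-10 fell 3.04-fold and 2.93-fold (limma, BH-adjusted p = 0.00183 and 0.00873).

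**Figure D3:**
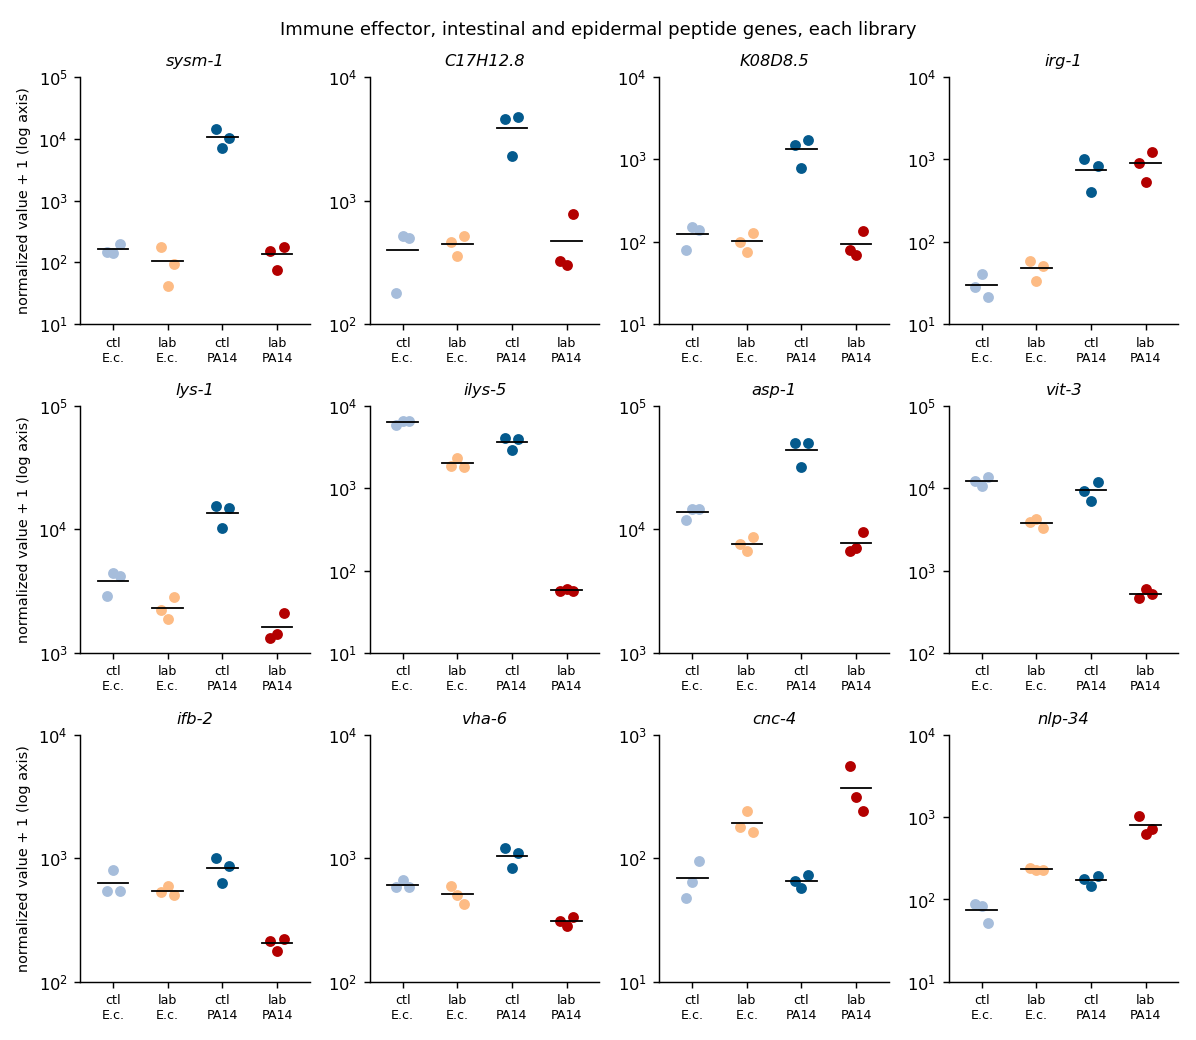
Normalized value + 1 (log axis) of immune effector, intestinal, yolk and epidermal peptide genes in each of the 12 libraries, with group means as bars (labels as in the plot of ER genes). The labelled PA14 libraries of sysm-1 lie between 74 and 174, those of ilys-5 between 55 and 59 and those of irg-1 between 526 and 1246, while those of cnc-4 and nlp-34 are the highest of the 4 groups.

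Small antimicrobial peptides, several of them known from the epidermis, were called higher more often than lower. Of 32 genes of the caenacin, fungus-induced, thaumatin-like and defensin-like families, 7 were called higher and 1 lower (2.12% and 3.65% of all genes). The median was 0.62, and among members with a mean of at least 50 there were 3 higher. Against 2-fold itself 1 gene was higher and 0 were lower. The caenacin gene cnc-4 had 65, 57 and 72 with control RNAi and 557, 311 and 243 with the labelled RNAi, a 5.34-fold rise (limma, BH-adjusted p = 0.000544), and fip-6 rose 5.43-fold (limma, BH-adjusted p = 0.00119). Of 91 neuropeptide-like genes 5 were called higher and 1 lower, where 2.12% and 3.65% of all genes were. The number of higher calls was 3 without control replicate 2 and 2 without control replicate 3, labelled replicate 1 or labelled replicate 2, and the lower call was lost without control replicate 2 or labelled replicate 2. Against 2-fold itself 1 was higher and 0 were lower. Those that rose included nlp-34 and nlp-31, which belong to a cluster of epidermal antimicrobial peptides. nlp-34 had 177, 145 and 191 with control RNAi and 1047, 621 and 714 with the labelled RNAi (4.54-fold, limma, BH-adjusted p = 0.000116). nlp-31 rose 3.11-fold (limma, BH-adjusted p = 0.000821). The call of thn-2, the 1 lower gene of the first list, was lost without each of control replicates 1, 2 and 3 and labelled replicates 1 and 3 (log2 fold change -2.20 to -1.69).

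Of 15 pals genes, a family linked to the response to intracellular pathogens, 5 were called higher and 1 lower, where 2.12% and 3.65% of all genes were. Among pals genes with a mean of at least 50, 2 were higher. The lower call was lost without control replicate 1, control replicate 3 or labelled replicate 3. Their median log2 fold change was 0.15 and the highest was 3.34. On E. coli 4 of the 15 were called higher, where 2.17% of all genes were.

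Genes of intestinal digestion and storage fell. Of 11 aspartic protease genes 10 were called lower and 0 higher, with a median log2 fold change of -2.12, and of 7 cathepsin B-like genes 5 were called lower and 0 higher, with a median of -2.13. The normalized values of asp-1, an intestinal aspartic protease gene, were 50155, 31778 and 49885 with control RNAi and 6631, 7092 and 9444 with the labelled RNAi. This was a 5.64-fold fall (log2 fold change -2.49, limma, BH-adjusted p = 2.10e-05), and the groups are far apart. asp-13 had 256, 216 and 252 against 4, 7 and 2, a 49.0-fold fall (limma, BH-adjusted p = 2.10e-05). Its labelled values are near the floor, and its log2 fold change was -6.50 to -4.75 over the settings tried. asp-2 and asp-5 fell 9.25-fold and 7.76-fold (limma, BH-adjusted p = 1.47e-07 and 6.68e-06), with inx-10 overlapping asp-2 on the other strand. Against 2-fold itself 5 of the aspartic protease and 3 of the cathepsin B-like calls remained in number. Among the cathepsin B-like genes cpr-4 had 4141, 3941 and 5306 with control RNAi and 371, 430 and 421 with the labelled RNAi, a 10.9-fold fall (limma, BH-adjusted p = 7.31e-06). cpr-1 had 1688, 1714 and 2685 against 356, 553 and 471 on PA14, a 4.37-fold fall (limma, BH-adjusted p = 0.000777), while on E. coli it had 1165, 1632 and 1855 with control RNAi and 2323, 2548 and 4550 with the labelled RNAi. The difference between the comparisons of cpr-1 was -3.10 (limma, BH-adjusted p = 0.00479), although its log2 fold change on E. coli, 0.98, was not called (limma, BH-adjusted p = 0.0698).

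Vitellogenin genes encode yolk proteins that the adult intestine makes for oocytes. All 6 had lower values in the labelled libraries on PA14, 5 of them called, with a median of -3.01. vit-1 had 1293, 1472 and 1612 with control RNAi and 46, 67 and 48 with the labelled RNAi, a 27-fold fall (limma, BH-adjusted p = 3.14e-06). vit-3 had 9291, 6936 and 12051 against 464, 592 and 519 (17.6-fold), and vit-4 and vit-5 fell 13.3-fold and 4.88-fold (limma, BH-adjusted p = 5.08e-07, 7.58e-07 and 5.18e-06). Because vit-3, vit-4 and vit-5 are nearly alike in sequence, how reads were divided among them is uncertain, and other genes overlap vit-3 and vit-4 on the other strand. The exception was vit-6, with 21952, 30129 and 39389 against 15109, 15905 and 19138, which did not overlap but differed by 1.78-fold (limma, BH-adjusted p = 0.0191). In uninfected animals 3 of the 6 were called lower, with a median of -0.87, and 4 of the 6 differed between the comparisons.

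The pud genes, whose proteins are abundant in long-lived daf-2 mutants, were lower in 6 of 6, with a median of -3.27. pud-3 had 11363, 6446 and 10650 with control RNAi and 242, 295 and 236 with the labelled RNAi (35.8-fold, limma, BH-adjusted p = 4.03e-06), and pud-4 had 19333, 9026 and 14195 against 453, 504 and 392 (30.2-fold, limma, BH-adjusted p = 5.84e-05). All 6 were also lower on E. coli, with a median of -1.95. The 6 genes lie together on chromosome V, some of them as near-identical copies, and are not 6 independent measurements. The list was chosen with earlier results of these data known, so that its direction is not independent evidence.

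Lipid genes moved in part. Of 4 lysosomal lipase genes tested 2 were called lower, lipl-1 and lipl-5, with 494, 349 and 346 against 49, 35 and 27, and 1476, 1364 and 1787 against 213, 256 and 315. Their falls were 10.6-fold and 5.92-fold (limma, BH-adjusted p = 0.000131 and 9.00e-05), whereas their log2 fold changes on E. coli were -0.12 and -0.19. Among 7 fatty acid desaturase genes 2 were called lower, of which fat-3, which makes polyunsaturated fatty acids, fell 2.70-fold (limma, BH-adjusted p = 0.000186). The other was fat-7, chosen after its values were seen, with 71, 87 and 120 against 7, 9 and 14 (8.61-fold, limma, BH-adjusted p = 0.000239). It was also called lower on E. coli (log2 fold change -1.71).

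Of 41 UDP-glucuronosyltransferase genes 7 were called lower and 2 higher, where 3.65% and 2.12% of all genes were. Without control replicate 1 or labelled replicate 2 the lower calls numbered 4, and the higher calls numbered 1 without these or without control replicate 3 or labelled replicate 1. Of 29 glutathione S-transferase genes 4 were called lower and 0 higher, where 3.65% and 2.12% of all genes were. The neighbours gst-28 and gst-27 fell 5.55-fold and 3.90-fold (limma, BH-adjusted p = 4.40e-05 and 0.000190). The lower calls numbered 3 to 6 when single libraries were left out. Of 35 cytochrome P450 genes 1 was called higher and 3 lower, where 2.12% and 3.65% of all genes were. The higher ones numbered 2 without control replicate 3 or labelled replicate 3, the lower ones numbered 1 among genes with a mean of at least 50, and 0 were called against 2-fold itself. The gene that rose, cyp-33C8, which is named for its difference between the comparisons, had 43, 32 and 42 with control RNAi and 135, 111 and 107 with the labelled RNAi, and on E. coli 30, 45 and 32 against 41, 43 and 31. Its difference between the comparisons was 1.46 (limma, BH-adjusted p = 0.0220). Of 137 nuclear hormone receptor genes 2 were called higher and 3 lower, a share near that of all genes. The higher ones numbered 1 without any 1 of the PA14 libraries other than control replicate 1.

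Of 8 genes of iron and metal storage and transport 3 were called lower and 0 higher (3.65% and 2.12% of all genes), with a median log2 fold change of -0.77. The ferritin gene ftn-2 had 7333, 6922 and 10986 with control RNAi and 1797, 2157 and 4866 with the labelled RNAi (3.09-fold, limma, BH-adjusted p = 0.0152), and its call was lost without control replicate 3, labelled replicate 1 or labelled replicate 2. The metallothionein gene mtl-2 had 1621, 1801 and 1892 against 818, 574 and 761 (2.49-fold, limma, BH-adjusted p = 0.00219). The calls in this list numbered 1 without control replicate 3 or labelled replicate 2, and 0 against 2-fold itself.

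**Figure D4:**
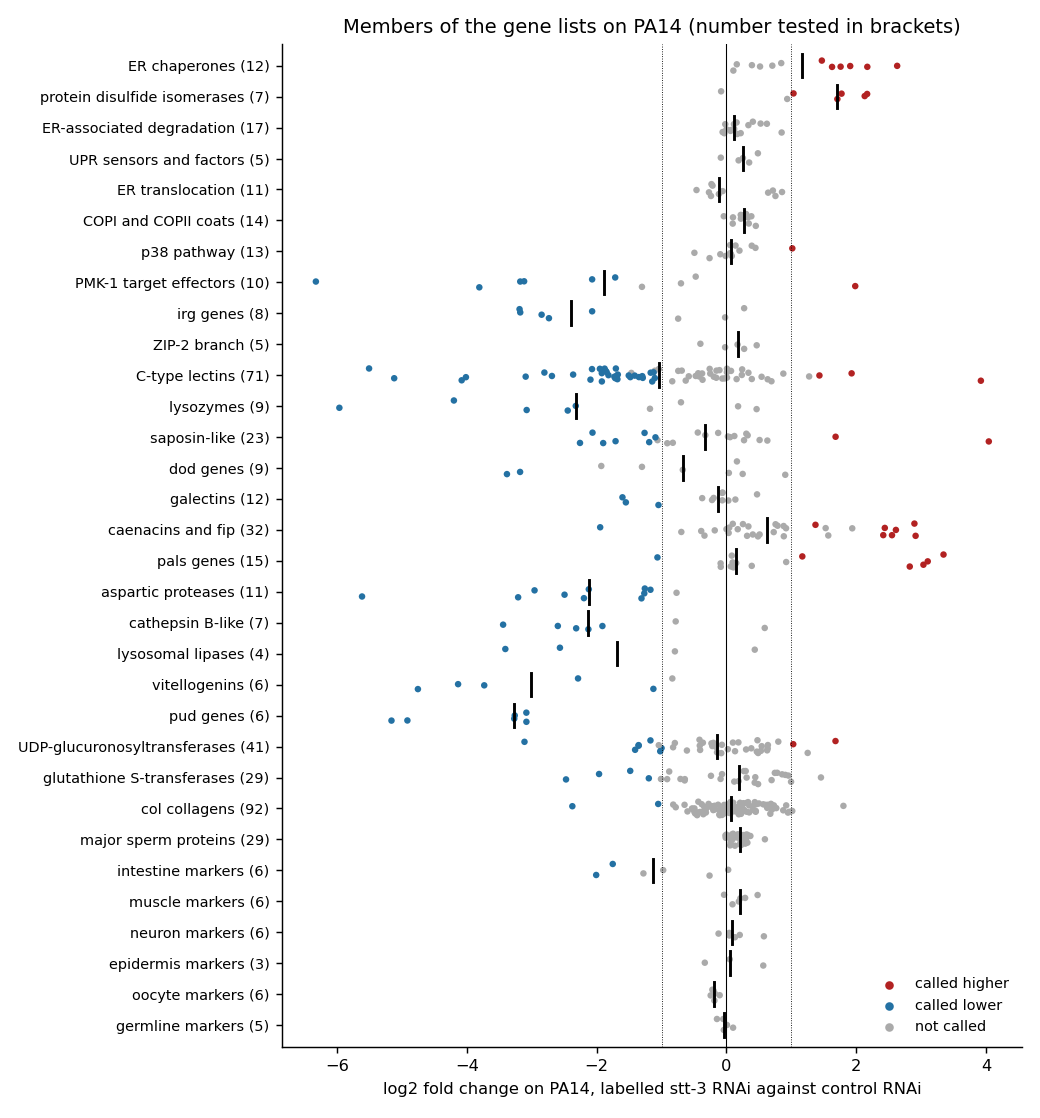
Log2 fold change on PA14 (labelled stt-3 RNAi over control RNAi) of each tested member of 32 gene lists, with the number tested in brackets, the median as a black bar and dotted lines at 2-fold. ER chaperones and disulfide isomerases lie to the right (medians 1.16 and 1.71), and lysozymes, aspartic proteases, vitellogenins and pud genes to the left (medians -2.32, -2.12, -3.01 and -3.27), while sperm, muscle, neuron and germline lists stay near 0.

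Effector, protease and yolk genes of the kinds described above are expressed largely in the intestine, and markers of that tissue were lower too. Of 6 intestine markers 2 were called lower and 0 higher (3.65% and 2.12% of all genes), with a median log2 fold change of -1.13. The intermediate filament gene ifb-2 had 998, 632 and 867 with control RNAi and 212, 177 and 222 with the labelled RNAi (4.02-fold), and the proton pump gene vha-6 had 1219, 828 and 1095 against 308, 281 and 332 (3.37-fold, limma, BH-adjusted p = 6.31e-05 for ifb-2 and 3.91e-05 for vha-6). The intestinal factor elt-2, with 48, 39 and 56 against 35, 41 and 42, was not called (log2 fold change -0.26), nor was the esterase gene ges-1 (0.03, chosen after its values were seen). The values of the 6 markers summed to 5314 to 8949 in the control libraries and to 2433 to 3234 in the labelled libraries on PA14, and no defining marker was at 0. On E. coli 0 of the 6 were called, and the difference between the comparisons passed for ifb-2 and vha-6 (-1.82 and -1.48, limma, BH-adjusted p = 0.00734 for both). The part of this shift in the falls of the effector, protease, lipase and vitellogenin genes was not tested. In RNA from whole animals, a smaller share of intestinal RNA and lower levels of single intestinal genes cannot be told apart.

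No gene was called in the other tissue lists, that is 6 muscle and pharynx, 6 neuron, 3 epidermis, 6 oocyte and 5 germline markers and 29 major sperm protein genes (median log2 fold changes 0.20, 0.09, 0.05, -0.19, -0.04 and 0.21). Over all genes 2.12% were called higher and 3.65% lower, so that 0 calls in such short marker lists says little. All 6 oocyte markers were below 0, and in 4 of them all labelled libraries lay below all control libraries, as in 15.2% of all genes. At an unadjusted p under 0.05, limma gave 2744 genes over the whole table. The muscle sums were 1590 to 2598 with control RNAi and 1937 to 2280 with the labelled RNAi, and those of the neuron markers 1655 to 1998 and 1916 to 2097. No gene was called among 75 ribosomal protein genes, 33 proteasome subunit genes and 8 genes of the mitochondrial stress response. Of 92 col collagen genes 0 were called higher and 2 lower, where 2.12% and 3.65% of all genes were. Of the 2, col-135 fell 5.18-fold (limma, BH-adjusted p = 6.31e-05), while the other call was lost without control replicate 1 or labelled replicate 2.

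Small heat shock genes gave calls that single libraries decide. Of 10 cytosolic heat shock genes 3 were called higher, where 2.12% of all genes were. hsp-16.2 had 140, 310 and 149 with control RNAi and 684, 648 and 728 with the labelled RNAi (3.67-fold, limma, BH-adjusted p = 0.0126), a call that was lost without control replicate 1 and without control replicate 3. The calls of hsp-16.1 and hsp-16.48 (limma, BH-adjusted p = 0.0445 and 0.0234) were each lost without any 1 of the labelled libraries, and that of hsp-16.1 also without control replicate 1 and without control replicate 2. These genes have near-identical copies, and without infection the log2 fold changes were -0.39, -0.01 and -0.11. The number of calls in the list was 1 or 2 when single libraries were left out.

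The largest rises on PA14 included a serpin, a choline kinase and genes without an assigned name. Y41C4A.32 (WBGene00270321, chromosome III from 11721706 to 11723607) had normalized values of 100, 89 and 61 with control RNAi and 15163, 8950 and 8407 with the labelled RNAi. This 127-fold rise (log2 fold change 6.98, standard error 0.48, limma, BH-adjusted p = 7.56e-06) was also found in the uninfected animals (7.85), and Y41C4A.26 spans the place on the other strand. srp-7, a serpin gene (WBGene00005648, chromosome V from 8179126 to 8183442), had 1013, 907 and 1326 against 22528, 21418 and 23784, a 21.1-fold rise (limma, BH-adjusted p = 2.04e-07). ckb-2, which encodes a choline kinase, had 103, 86 and 107 against 2536, 1847 and 2017, a 21.3-fold rise (limma, BH-adjusted p = 6.05e-06). cdr-4, of a cadmium-responsive family, had 420, 333 and 704 against 12979, 9326 and 12104, a 24.5-fold rise (limma, BH-adjusted p = 0.000131). The small GTPase gene warf-1 rose 17.1-fold (limma, BH-adjusted p = 0.000717), with nep-16 overlapping on the other strand. All of these were called higher on E. coli as well.

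Other large rises started from values near 0, where the fold depends on the pseudocount. F22E5.6 had 2, 1 and 1 with control RNAi and 182, 125 and 120 with the labelled RNAi (log2 fold change 5.94, and 4.52 to 6.51 over the settings tried). sdz-35 had 7, 5 and 9 against 266, 155 and 231. The neighbours ZK355.3 and ZK355.8 on chromosome II had 4, 3 and 3 against 210, 144 and 92, and 8, 4 and 7 against 236, 228 and 128 (limma, BH-adjusted p = 0.000983 and 0.00992), and were not called on E. coli. W02D7.11 had 20, 21 and 11 against 442, 381 and 219 (log2 fold change 4.24, limma, BH-adjusted p = 0.0456). Its call was lost in 11 of 18 alternatives, among them the replicate block over all 12 libraries (limma, BH-adjusted p = 0.0598) and the omission of any 1 of the PA14 libraries (adjusted p over the settings 9.11e-05 to 0.463).

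Among the largest falls not yet described, oac-20, an O-acyltransferase homolog, had 183, 65 and 80 in control RNAi and is listed at 0 in all 3 labelled libraries (limma, BH-adjusted p = 3.19e-06), with fbxa-99 overlapping on the other strand. On E. coli oac-20 had 26, 57 and 32 with control RNAi and 21, 16 and 28 with the labelled RNAi, so that the gene was present there in both groups. comt-2, a methyltransferase gene of the catechol type, had 227, 105 and 250 against 7, 2 and 6 on PA14 (33.1-fold, limma, BH-adjusted p = 8.50e-05), and 9, 10 and 11 against 15, 6 and 4 on E. coli. The labelled PA14 values of oac-20 and comt-2 are at or near the floor, where the fold depends on the pseudocount. Over the settings tried their log2 fold changes were -7.63 to -4.38 and -6.06 to -4.26.

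The calls were set beside those of the uninfected comparison, which shares no library with the one on PA14. Both come from 1 fit with a shared estimate of the spread, over genes filtered on the PA14 libraries alone. The lists are therefore not independent, and genes present only on E. coli are left out. Fitted on the E. coli libraries alone, 102 genes were higher and 56 lower, fewer than in the shared fit given next. On E. coli 253 genes (2.17%) were called higher and 144 (1.24%) lower in the labelled libraries. Of these, 118 were higher in both comparisons, which is 47.77% of the PA14 list and 46.64% of the E. coli list. Lower in both were 85, which is 20% of the PA14 list and 59.03% of the E. coli list. Only 1 gene was higher on PA14 and lower on E. coli, and 6 were the opposite. The difference itself passed the test in the smaller direction for 169 genes and in the larger direction for 32 (at any fold 1.54% and 0.516% of genes had an adjusted p under 0.05). Without control replicate 3 on PA14 these numbers were 83 and 13, without control replicate 1 they were 87 and 14, without labelled replicate 1 they were 107 and 14 and without labelled replicate 2 they were 84 and 13. With the test against 2-fold they were 5 and 0. The smallest p values in the smaller direction were those of ilys-5, asp-2, clec-53 and aagr-2, an acid alpha-glucosidase gene. aagr-2 had 494, 392 and 509 with control RNAi and 155, 147 and 173 with the labelled RNAi on PA14, but 230, 225 and 236 against 284, 260 and 297 on E. coli (difference -1.82, limma, BH-adjusted p = 0.000428). In the larger direction ora-1 had 6, 9 and 6 against 73, 45 and 40 on PA14 and 30, 40 and 31 against 26, 46 and 29 on E. coli (difference 2.75, limma, BH-adjusted p = 0.00627). The purine synthesis gene paic-1 had 133, 121 and 133 against 362, 355 and 321 on PA14 and 272, 294 and 239 against 230, 253 and 135 on E. coli (difference 1.84, limma, BH-adjusted p = 0.00788), with try-9 overlapping on the other strand.

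**Figure D5:**
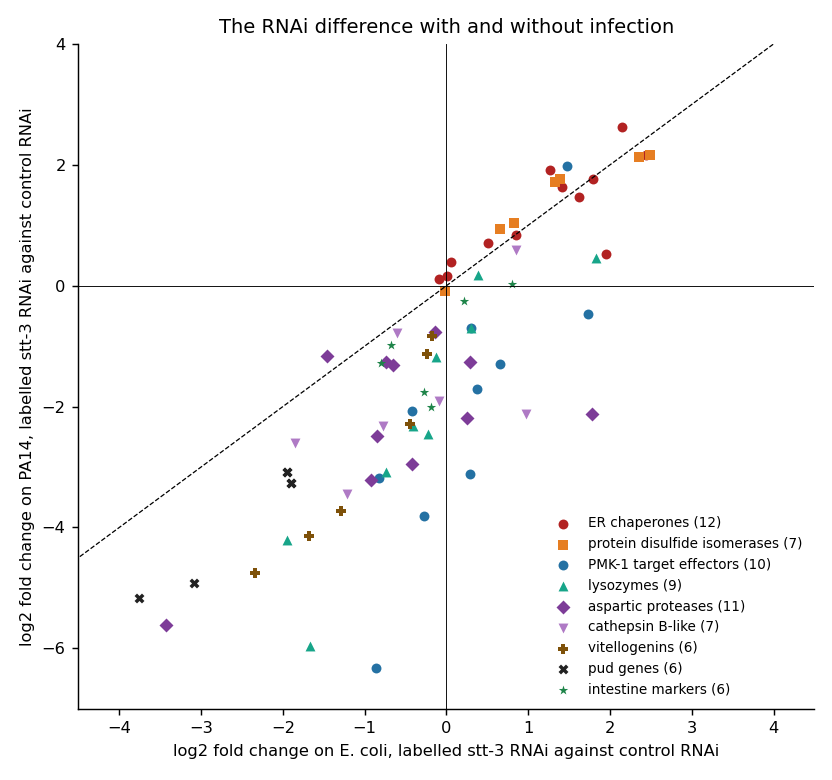
Log2 fold change (labelled stt-3 RNAi over control RNAi) on E. coli (horizontal) and on PA14 (vertical) of the tested members of 9 lists, with the line of equal change dashed. ER chaperones and disulfide isomerases lie along the dashed line, while most effectors, lysozymes, proteases, vitellogenins and intestine markers lie below it, such as sysm-1 at -0.86 and -6.33.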

How the data were processed

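Per the labels, wild-type N2 worms of 4 groups with 3 replicates each were sequenced as whole bodies (TruSeq RNA v2, a kit that does not mark strand). The authors aligned reads to WBcel235 with HISAT2 2.0.5 and quantified genes with StringTie 1.3.3b, per the submitters' processing notes, and the paper adds upper-quartile normalization and RUVSeq. The deposited values are therefore a normalized score, rounded to whole numbers under a header that reads count. Upper-quartile scaling sets the 75th percentile equal, so that a shift of most genes would not be seen.

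Genes that reached 10 in 3 or more of the 6 PA14 libraries were fitted with limma 3.58.1 (R 4.3.3) on log2(value + 1), with a mean per group over all 12 libraries and a mean-variance trend. The interaction is the log2 fold change on PA14 minus that on E. coli. The fit was tested on simulated data. Symbols were matched for 16626 of 17430 genes, and coordinates come from Ensembl 115 (WBcel235) for 17384.

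Named genes are the 10 largest called changes in each direction with a mean of at least 100 in the higher group and no overlap between the groups, the genes the study names, up to 4 called members of each of 54 lists by the same minimum, and the 4 smallest interaction p in each direction. Others given with a result of their own are marked as chosen after their values were seen. The members and lists were chosen with earlier results of these data known.

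The deviations of libraries with equal replicate number from their group means correlated at 0.30 to 0.59 across genes on PA14, against -0.54 to 0.20 for unequal numbers, so that the numbers pair the libraries. The reported fit has no replicate block, which enters as an alternative. No libraries were identical (largest correlation 0.986). Alternatives were other filters, pseudocounts of 0.5 and 5, median-of-ratios, quantile and equal-total scaling (the last chosen after seeing the data), a replicate block, only the groups compared, no trend, a test against 2-fold, and each library left out.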

Additional observations from a re-analysis of the deposited data

Results flagged for a closer look

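Of the named genes, 43 had a log2 fold change on PA14 that differed from the one on E. coli at an adjusted p under 0.05 in limma's interaction test, 38 toward a lower and 5 toward a higher value on PA14. The values below are differences between these log2 fold changes. No explanation was tested for any of them. Many named genes were picked for their change on PA14 or for a small p in this same test. The count and its direction thus follow in part from that choice. Over all genes tested, 1.54% differed toward a lower and 0.516% toward a higher value at an adjusted p under 0.05.

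Among immune effector genes the differences were -5.47 for sysm-1, -3.41 for C17H12.8, -3.53 for K08D8.5, -4.30 for irg-6, -5.26 for dod-22 and -1.57 for dod-23. On E. coli the log2 fold changes of C17H12.8, irg-6 and dod-22 were positive (0.29, 1.11 and 2.08), and of these only dod-22 was called. The values of irg-6 there were near the floor, with 0, 1 and 0 with control RNAi and 4, 0 and 3 with the labelled RNAi. C-type lectin genes had -6.37 (clec-174), -3.76 (clec-45) and -3.18 (clec-53). Lysozyme genes had -4.29 (ilys-5), -2.25 (lys-4), -2.34 (lys-1) and -2.22 (lys-8). The saposin-like genes spp-4 and spp-14 had -1.26 and -1.24, and the galectin gene lec-6 had -1.16.

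Protease genes had -2.28 (asp-2), -2.54 (asp-5), -1.65 (asp-1), -2.23 (cpr-4), -3.10 (cpr-1) and -1.82 (cpr-9). Yolk protein genes had -2.41 (vit-1), -2.46 (vit-3), -2.44 (vit-4) and -1.84 (vit-5), and the pud-2.2 copies, which share reads, had -1.37 and -1.36. Lipid genes had -3.29 (lipl-1), -2.38 (lipl-5) and -1.47 (fat-3). The intestine markers ifb-2 and vha-6 had -1.82 and -1.48. Further genes with lower values were oac-20 (-5.89), comt-2 (-4.63), aagr-2 (-1.82) and gst-28 (-1.46). For sdz-35 the difference of -2.34 stands between large rises on PA14 (4.77) and on E. coli (7.11), where it is listed at 0 in the control libraries.

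The 5 differences toward a higher value were those of WBGene00021737 (2.60), ora-1 (2.75), paic-1 (1.84), cyp-33C8 (1.46) and the ferroportin gene fpn-1.1 (1.15). WBGene00021737 had 16, 16 and 13 in the labelled libraries on PA14 and is listed at 0 in all control libraries. The genes Y50D4A.7 and Y50D4A.8 overlap it on the other strand.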

How the results depend on the processing

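No called value changed sign under any alternative, while 6 named genes that were not called did so, irg-1, atf-7 and vhp-1 among them, and equal library totals turned the balance of calls on PA14 from mostly lower to mostly higher. Of the 116 named genes 99 were called, and 59 of them were called under all 18 alternatives. Of 117 losses of a call over all named genes and alternatives, 40 came with the test against 2-fold, 54 with 1 library left out and 23 with other alternatives. With genes of a mean of at least 50 only, PA14 gave 136 higher and 277 lower genes, 166 higher and 91 lower on E. coli, and 16 in the larger direction of the interaction, from fewer genes tested. The test against 2-fold (limma treat) called 52 higher and 118 lower on PA14, 31 higher and 5 lower on E. coli, and 0 larger and 5 smaller in the interaction, where 28 larger and 176 smaller had an unadjusted p under 0.05. Equal library totals gave 426 genes higher and 345 lower on PA14, and quantile normalization 69 in the larger direction of the interaction. With only the libraries compared, 102 genes were higher and 56 lower on E. coli, and with a replicate block over only these libraries 148 were higher. The cause of these shifts was not tested. The replicate block moved no other count by over 1.5 times, and among named genes it ended the call of W02D7.11 alone. Leaving out 1 library at a time gave 166 to 230 genes higher and 326 to 465 lower on PA14, 167 to 283 higher and 97 to 174 lower on E. coli, and 13 to 42 larger and 83 to 222 smaller in the interaction. The interaction counts moved by over 1.5 times without control replicate 1 (14 larger, 87 smaller), control replicate 3 (13 and 83), labelled replicate 1 (14 and 107) or labelled replicate 2 (13 and 84) on PA14. They did so too without control replicate 1 (99 smaller), control replicate 2 (21 larger) or labelled replicate 1 (20 larger, 111 smaller) on E. coli, and the higher genes on E. coli numbered 167 without control replicate 1 and 168 without labelled replicate 1. With 3 replicates per group and no read counts, depth sets no limit that can be stated.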

Other observations

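The genes in these paragraphs were chosen after their values were seen, and they serve as description only. They are drawn from no fixed list and say nothing of their groups as a whole. The lysosomal nuclease gene nuc-1 stood at 1020 ± 226 with control RNAi and at 111 ± 4.73 with the labelled RNAi (SD, n = 3 each), or -3.16 on the log2 scale (limma, BH-adjusted p = 7.58e-07). The acid ceramidase genes asah-1 and asah-2 had log2 fold changes of -3.48 and -2.87, the sphingomyelinase genes asm-2 and asm-3 had -2.60 and -3.75, and the glucocerebrosidase gene gba-4 had -2.02, all of them called. The cathepsin genes cpl-1 and cpz-1, whose values were 6392 ± 311 and 2429 ± 93.1 (SD, n = 3) in control RNAi, had log2 fold changes of -1.34 and -1.25 (limma, BH-adjusted p = 5.58e-06 and 5.20e-05). On E. coli those of nuc-1, asm-2, asm-3 and cpz-1 were also called, and those of asah-1, asah-2, gba-4 and cpl-1 were not.

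Among genes of intestinal intermediate filaments, picked for their low values, the log2 fold changes of ifc-2, ifd-1 and ifd-2 on PA14 were -1.81, -1.30 and -1.71 (limma, BH-adjusted p = 0.000115, 0.00663 and 0.000880), and on E. coli they were -0.02, -0.46 and -0.51, with no call. The intestinal proton exchanger gene nhx-2 had -1.22 on PA14.

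On the higher side, genes outside the lists were picked in the same way. The ER stress protein gene manf-1 had 1800 ± 238 with control RNAi and 4558 ± 272 with the labelled RNAi (SD, n = 3 each), or 1.35 on the log2 scale (limma, BH-adjusted p = 0.00161). The microsomal triglyceride transfer gene dsc-4, the ER retention receptor gene erd-2.1 and the vesicle fusion gene sec-22 had 1.61, 1.06 and 1.12. In amino sugar synthesis, which supplies N-glycans, gfat-1, gna-1 and gale-1 had 1.04, 1.06 and 1.79 (limma, BH-adjusted p = 0.00331, 0.0210 and 0.00464). The beta-tubulin gene tbb-6 had 16 ± 3.00 with control RNAi and 87.0 ± 20.8 with the labelled RNAi (SD, n = 3 each), or 2.36 on the log2 scale (limma, BH-adjusted p = 0.00325). On E. coli dsc-4, gfat-1, gale-1 and tbb-6 were also called higher (log2 fold changes 2.12, 1.04, 2.90 and 3.65), and manf-1, erd-2.1, sec-22 and gna-1 were not called.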
